A study of Homo sapiens with 18 samples.

Results

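Keratins are the proteins of the intermediate filaments of epithelial cells. The genes described here are 10 epithelial keratins, KRT5, KRT7, KRT8, KRT10, KRT15, KRT18, KRT19, KRT20, KRT23 and KRT80, and they were followed through every probe that the array's annotation assigns to them, which gave 13 of 47303 probes. Of 20041 genes with a probe of their own symbol on the array, these are 10. The study asked how the RNA of prostate cancer cells changes when galectin-4, the lectin encoded by LGALS4, is forced or lowered. RNA of established human prostate cancer cell lines was hybridised to 18 bead arrays, 3 in each of 6 groups. In 4 groups, 22Rv1 or LNCaP cells carried the tetO-Gal4 construct and were measured without or with doxycycline (Dox). The other 2 groups were the line 22Rv1-M4 with a scramble control (shCtrl) or with a knockdown of galectin-4 (shGal4), called M4 scramble and M4 knockdown here. The controls without Dox thus carried the construct as well, and no group received Dox without it. The labels name neither a dose or time of Dox nor whether a line is a single clone.

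A keratin filament is built from pairs of a type I and a type II chain. KRT8 (type II) and KRT18 (type I) form the basic pair of simple epithelia, which luminal prostate cells also make, and KRT7 (type II) and KRT19 (type I) are made beside them in many ducts. KRT20 belongs to gut and urothelium, KRT5 and KRT15 to the basal layer of stratified epithelia, KRT10 to the differentiating layers of the epidermis, KRT80 to several epithelia, and KRT23 is a type I chain. Type II genes lie in a cluster on chromosome 12 and type I genes in one on chromosome 17, except KRT18, which lies beside KRT8.

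Levels are given on a log2 scale after background correction and quantile normalization, and a probe was above background on an array when its deposited detection p-value was under 0.05. Arrays had mean intensities from 306 to 404, with 41.9% to 45.1% of their probes above background. Correlations between arrays of a group ran from 0.976 to 0.995, lowest among the arrays labelled 22Rv1 with Dox and highest in 22Rv1 without Dox. On the leading axis of the variation within groups, 22Rv1 Dox replicates 2 and 3 lay at opposite ends of their group (-26.9 and 40.3), and M4 scramble replicate 3 (-34.3) lay apart from the other two. Nothing in the labels tells whether the replicates are separate cultures, so a p-value covers only the spread among these arrays, possibly a technical one. The targeted gene went against one label. LGALS4 fell by 7.45 in M4 knockdown (adjusted p = 1.49e-15 by limma) and rose by 1.92 in LNCaP with Dox (adjusted p = 1.52e-05, at least 3.41-fold), but changed by -0.06 (SE 0.22, adjusted p = 0.893) on the arrays labelled 22Rv1 with Dox. Directions drawn from those 3 arrays therefore rest on their label alone.

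The tissue label was set against marker genes. Of the 7 prostate luminal markers with a probe, 6 were above background in 22Rv1 and M4 cells, and KLK3, the gene of prostate-specific antigen, was at background on all arrays of both. In LNCaP all 7 were above background, KLK3 included. The basal keratin KRT14 was not above background on any 22Rv1, LNCaP or M4 scramble array, but was on at least 1 M4 knockdown array. Of the 7 basal genes with a probe, 1 to 2 were above background on at least 2 of 3 arrays, depending on the group. CD3E and CD74 of leucocytes, and COL3A1, FBN1, PDGFRA and THY1 of fibroblasts, were above background on no array. Other genes of these lists were detected: 4 to 6 of 9 leucocyte genes and 1 to 3 of 10 fibroblast genes were above background on at least 2 of 3 arrays, depending on the group, LCP1 and COL1A1 among those with a tested probe.

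Of the 10 keratins, KRT8, KRT10, KRT18 and KRT19 were above background on all 18 arrays, KRT18 by both of its probes. KRT7 was above background on 1 of 3 arrays in 22Rv1, on 3 of 3 labelled 22Rv1 with Dox, on 2 of 3 in M4 scramble, on 3 of 3 in M4 knockdown and on none in LNCaP. KRT15 was above background on the 3 arrays of 22Rv1 without Dox and the 3 of M4 knockdown, and on none elsewhere. In 22Rv1 its detection p-values were 0.038, 0.035 and 0.034, close to the cutoff. The KRT80 probe ILMN_1705814 was above background on 2 of 3 LNCaP arrays, 3 of 3 with Dox and 1 of 3 in M4 knockdown. KRT5, KRT20 and KRT23, and the other probe of KRT80 (ILMN_2366445), were dim everywhere. Their 5 probes had intensities between 91.2 and 119.2, and 1 of their 90 values lay above background, that of the KRT20 probe ILMN_2219867 on an M4 knockdown array. These 5 probes were not tested, and a dim probe does not show that a transcript is absent. The other 8 probes, of 7 genes, were above background on at least 3 arrays and were tested, as 25675 of all probes did. KRT15 and KRT80, and to a lesser degree KRT7, passed through the groups in which they were high, so the counts below describe the probes and support nothing about keratins as a class.

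**Figure D1:**
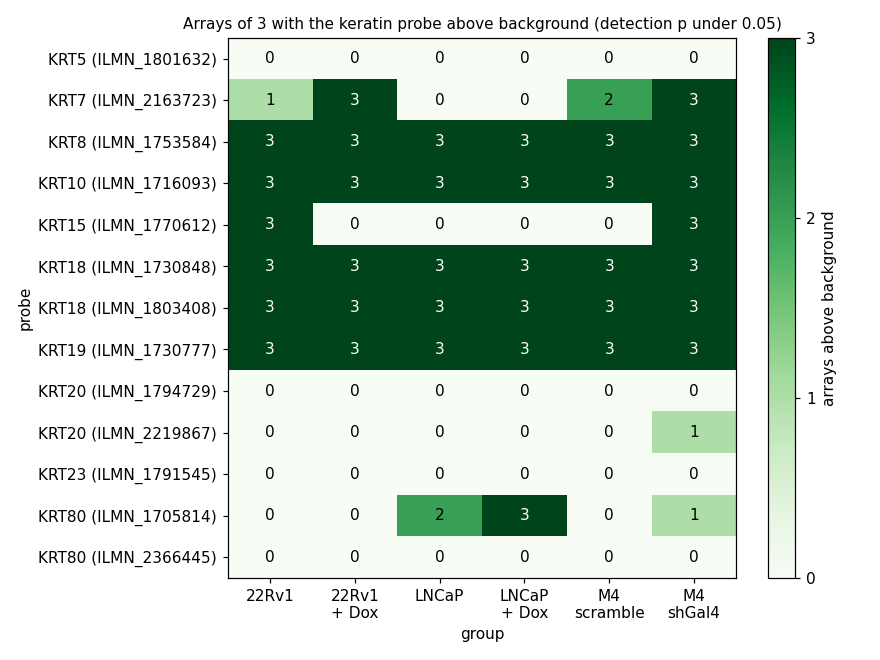
Number of arrays, of 3 in each group (columns), on which each of the 13 keratin probes (rows) was above background; darker cells mark more arrays. KRT8, KRT10, KRT18 and KRT19 were above background on all 18 arrays, whereas KRT5, KRT23 and 1 of 2 probes each of KRT20 and KRT80 were above it on none.

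KRT19, the type I chain of ducts and simple epithelia that has no tail domain, had the widest range of the 10 genes, with group means spanning 5.29 on the log2 scale. In M4 knockdown its level was 11.31, 11.28 and 11.28 on the 3 arrays, and in M4 scramble it was 6.07, 6.04 and 5.98. In 22Rv1 without Dox it was 10.19, 9.97 and 9.97, and on the arrays labelled 22Rv1 with Dox it was 9.23, 8.99 and 9.68. LNCaP arrays had 6.15, 5.85 and 6.00 without Dox and 6.47, 6.08 and 6.05 with it. M4 knockdown was thus highest, then 22Rv1, then the arrays labelled 22Rv1 with Dox, none of which overlap, and the other 3 groups overlap near 6. Before background correction the mean intensity was 2572 in M4 knockdown, 1224 in 22Rv1, 724 on the arrays labelled 22Rv1 with Dox and between 151 and 159 in the remaining groups.

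The knockdown of galectin-4 came with a KRT19 rise of 5.26 in M4 cells (SE 0.16, 95% interval 4.94 to 5.59, 38.3-fold, adjusted p = 1.63e-15 by limma, higher in 3 of 3 arrays). It was the largest rise among the 13377 probes that were higher in the knockdown. Against 22Rv1 without Dox, KRT19 differed by -4.01 in M4 scramble (SE 0.16, adjusted p = 6.25e-14, 16.1-fold) and by 1.25 in M4 knockdown (SE 0.16, adjusted p = 5.61e-06, 2.37-fold). The 2 M4 comparisons share the 22Rv1 arrays. On the arrays labelled 22Rv1 with Dox it fell by 0.74 (SE 0.16, adjusted p = 0.00185, 1.67-fold), and in LNCaP it changed by 0.20 with Dox (95% interval -0.13 to 0.52, adjusted p = 0.411). LNCaP without Dox differed from 22Rv1 by -4.04 (SE 0.16, adjusted p = 7.32e-15). Without background correction the M4 knockdown rise was 4.06 and the 2 falls against 22Rv1 were -2.88 and -2.89, with the calls unchanged.

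**Figure D2:**
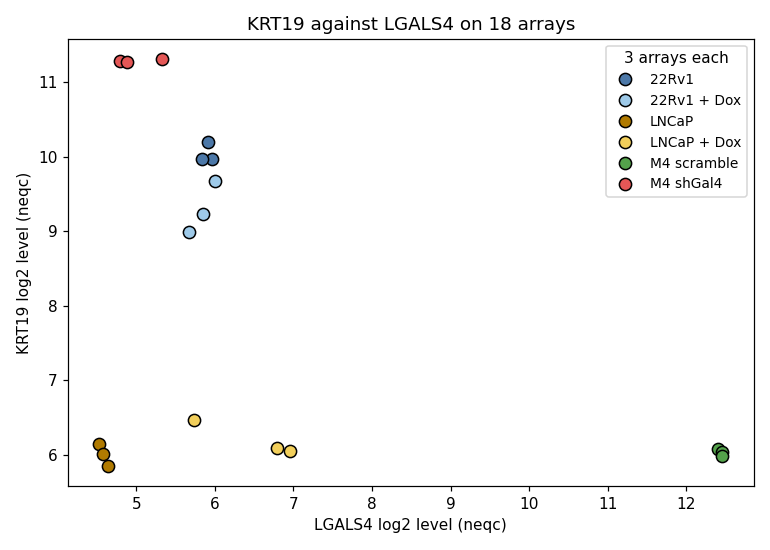
Log2 level of KRT19 (vertical) against that of LGALS4 (horizontal) on each of the 18 arrays, coloured by group with 3 arrays in each. M4 scramble arrays have the highest LGALS4 beside KRT19 near 6, M4 knockdown arrays the highest KRT19, and LNCaP arrays are low in KRT19 at either LGALS4 level.

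The order of KRT19 was not the reverse of that of LGALS4 over all groups. It was the reverse over 22Rv1 without Dox, M4 scramble and M4 knockdown. There LGALS4 means were 5.90, 12.4 and 5.00, and KRT19 means were 10.04, 6.03 and 11.29. LNCaP without Dox had LGALS4 at background (4.53, 4.64 and 4.57) and KRT19 near 6, as low as M4 scramble with LGALS4 at 12.4. Within LNCaP, LGALS4 rose with Dox to 5.73, 6.79 and 6.96, while KRT19 did not pass the test. These levels stay below those of M4 scramble, and a relation between LGALS4 and KRT19 was not tested.

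KRT7, the type II chain often made together with KRT19, was higher on the arrays labelled 22Rv1 with Dox and in M4 knockdown. Its level was 5.05, 4.63 and 4.54 in 22Rv1, and 5.78, 5.84 and 5.80 on the arrays labelled 22Rv1 with Dox. It was 4.93, 5.04 and 4.71 in M4 scramble, and 6.11, 5.93 and 6.31 in M4 knockdown. LNCaP arrays lay between 4.21 and 4.31 both without and with Dox, none of them above background. The arrays of the M4 knockdown and those labelled 22Rv1 with Dox overlap with no other group, and M4 scramble overlaps with 22Rv1. The rise was 1.07 on the arrays labelled 22Rv1 with Dox (SE 0.14, 2.09-fold, adjusted p = 1.76e-05) and 1.22 in the knockdown (SE 0.14, 2.34-fold, adjusted p = 2.09e-06). In LNCaP with Dox the change was 0.00 (95% interval -0.29 to 0.29), with both groups at background. KRT7 and KRT19 thus rose together in the knockdown, and on the arrays labelled 22Rv1 with Dox KRT7 rose while KRT19 fell. LNCaP differed from 22Rv1 by -0.47 (SE 0.14, adjusted p = 0.01, at least 1.01-fold), a call that was lost without 22Rv1 replicate 1 (-0.31, adjusted p = 0.0945). KRT7 is dim, and without background correction its 2 rises were 0.33 and 0.42, called in both.

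KRT8, the type II chain of simple epithelia, moved the other way from KRT19 between the M4 groups. Its level was 10.07, 10.31 and 10.33 in M4 scramble and 9.43, 9.65 and 9.74 in M4 knockdown, with no overlap. It was 9.06, 9.05 and 8.99 in 22Rv1, and 9.38, 9.48 and 9.58 on the arrays labelled 22Rv1 with Dox. LNCaP arrays had 9.15, 8.48 and 8.77 without Dox and 8.59, 8.86 and 8.83 with it, so these 2 groups overlap. KRT8 fell by 0.63 in the knockdown (SE 0.15, 1.55-fold, adjusted p = 0.00573), and was higher than in 22Rv1 by 1.20 in M4 scramble (SE 0.15, 2.30-fold, adjusted p = 4.84e-06) and by 0.57 in M4 knockdown (SE 0.15, adjusted p = 0.00926; 0.0644 with median scaling). On the arrays labelled 22Rv1 with Dox it was higher by 0.45 (SE 0.15, adjusted p = 0.0436). That call was lost in 10 of 16 other settings, among them the omission of any one of the 6 arrays compared (adjusted p 0.0605 to 0.120). With Dox in LNCaP the change was -0.04 (95% interval -0.35 to 0.28), and LNCaP against 22Rv1 did not pass the test either.

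KRT18, the partner of KRT8, was read by 2 probes, which did not move alike. Both were dim. Group means of intensity before correction were 148.8 to 184.5 on ILMN_1803408 and 130.3 to 145.7 on ILMN_1730848, against 483.6 to 1408.4 for KRT8. On the probe ILMN_1803408 the level was 5.68, 5.64 and 5.93 in 22Rv1 and 6.53, 6.11 and 6.79 on the arrays labelled 22Rv1 with Dox, a rise of 0.72 (SE 0.18, 1.65-fold, adjusted p = 0.00776; 0.0664 with median scaling, and 0.32 without background correction). On the probe ILMN_1730848 these groups had 5.52, 5.43 and 5.21 against 5.34, 5.09 and 5.21, a change of -0.17 (adjusted p = 0.442). Neither probe passed the test with Dox in LNCaP (-0.26 and -0.22) or in the knockdown, where M4 scramble had 6.02, 6.22 and 6.24 on the first probe and M4 knockdown 6.39, 6.57 and 6.36, and 5.53, 5.86 and 5.70 against 5.92, 6.13 and 5.99 on the second. Both probes were higher in M4 knockdown than in 22Rv1, by 0.69 and 0.63 (adjusted p = 0.00981 and 0.00198), and both calls were lost with median scaling (adjusted p = 0.143 and 0.0927). Both were also higher in LNCaP than in 22Rv1, by 0.51 and 0.42 (adjusted p = 0.0300 and 0.0166), calls that were lost for the first probe in 8 of 16 other settings and for the second in 3 of 15. For the first these were median scaling, no background correction, the deposited log2 matrix, no detection filter, and the omission of 22Rv1 replicate 1 or 2 or of LNCaP replicate 1 or 2. The deposited matrix holds nearly the same values as no background correction, so these are not separate checks. For the second they were median scaling and the omission of 22Rv1 replicate 3 or LNCaP replicate 1. The LNCaP arrays of the first probe (6.48, 6.49 and 5.81) overlap those of 22Rv1. In the knockdown KRT8 thus fell, while neither probe of its partner passed the test (0.28 and 0.32). Within groups, r between KRT8 and KRT18 over the 18 arrays was 0.24 for ILMN_1803408 and 0.50 for ILMN_1730848. KRT8, KRT18 and KRT19 have named pseudogenes in the annotation, and how far those RNAs reach the probes was not tested.

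KRT10, the type I chain of differentiating epidermis, was highest in LNCaP. Its level was 9.61, 9.20 and 9.50 in LNCaP and 9.41, 9.62 and 9.55 with Dox, against 7.74, 7.37 and 7.44 in 22Rv1. The arrays labelled 22Rv1 with Dox had 7.26, 7.22 and 7.51, M4 scramble 7.60, 7.67 and 7.69, and M4 knockdown 7.98, 8.19 and 8.35. LNCaP lay 1.92 above 22Rv1 (SE 0.14, 3.78-fold, adjusted p = 4.24e-10), with no overlap. KRT10 rose by 0.52 in the knockdown (SE 0.14, adjusted p = 0.0152), and was 0.66 above 22Rv1 in M4 knockdown (SE 0.14, adjusted p = 0.00211; 0.109 with median scaling). The rise in the knockdown was lost with median scaling (adjusted p = 0.129) and without M4 scramble replicate 1 (0.0536) or M4 knockdown replicate 3 (0.0734). It did not pass the test with Dox in either line (-0.18 on the arrays labelled 22Rv1 with Dox, adjusted p = 0.436, and 0.09 in LNCaP, adjusted p = 0.714).

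KRT15 and KRT80 were close to background. KRT15, a type I chain of basal cells and the neighbour of KRT19, had 4.47, 4.36 and 4.43 in M4 scramble, not above background, and 5.03, 5.33 and 4.77 in M4 knockdown. That rise was 0.62 (SE 0.13, adjusted p = 0.00181, at least 1.28-fold; 0.19 without background correction). In 22Rv1 it was 4.70, 4.78 and 4.76, so M4 knockdown overlaps it, and the difference of 0.30 did not pass the test (adjusted p = 0.118). From 22Rv1, KRT15 differed by -0.24 on the arrays labelled with Dox, -0.33 in M4 scramble and -0.31 in LNCaP. None of these was called (adjusted p = 0.219, 0.0644 and 0.0587 by limma), but they were in 1, 3 and 5 of 15 other settings. KRT80 had 4.67, 4.92 and 5.07 in LNCaP and 5.49, 5.28 and 5.20 on the Dox arrays, a rise of 0.44 (SE 0.15, adjusted p = 0.0441). It was lost in 11 of 16 other settings, among them the omission of LNCaP replicate 1 or 2 or of any one of the Dox arrays. KRT80 was 0.40 higher in LNCaP than in 22Rv1 (adjusted p = 0.0409, at least 1.15-fold), lost in 10 of 16 settings, which include the omission of 22Rv1 replicate 1 or 2 and of LNCaP replicate 2 or 3.

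**Figure D3:**
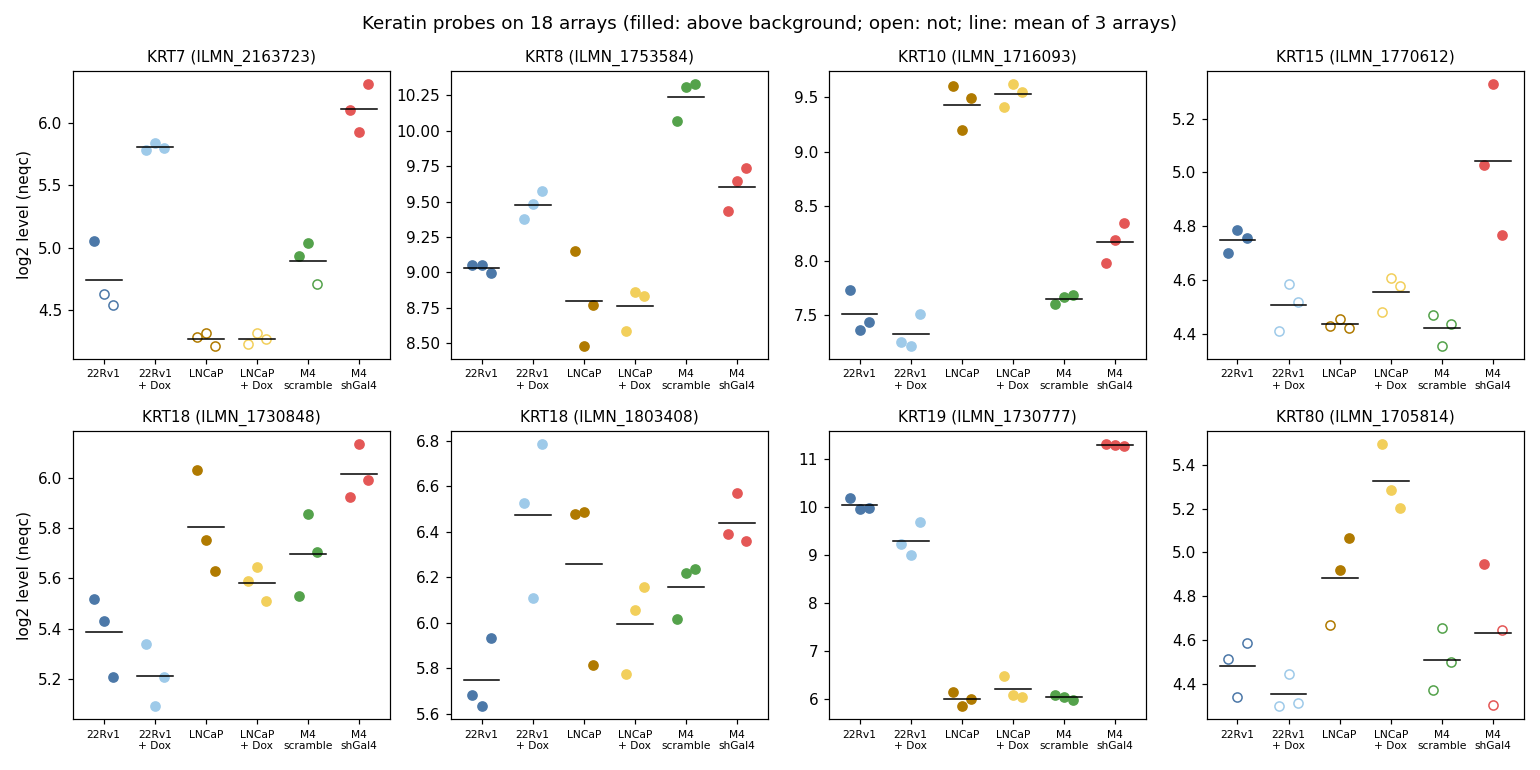
Log2 level of each of the 8 tested keratin probes on each array (points) with the mean of its group (bar), for 6 groups of 3 arrays; each panel has its own scale. KRT19 spans 5.29 between group means, against 2.19 for KRT10, 1.85 for KRT7 and 1.47 for KRT8.

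On the arrays labelled 22Rv1 with Dox, 4 of 8 tested keratin probes were called, 3 higher (KRT7, KRT8 and ILMN_1803408 of KRT18) and 1 lower (KRT19), where 18.8% of all probes tested were called (8.24% higher and 10.6% lower). The median change of the 8 probes was -0.15 against -0.02 over all probes. In LNCaP with Dox 1 of 8 was called, KRT80, against 23.3% of all probes (11.7% higher and 11.6% lower), and the medians were 0.05 and -0.03. In M4 knockdown 5 of 8 were called, 4 higher (KRT7, KRT10, KRT15 and KRT19) and 1 lower (KRT8), against 16.9% of all probes (9.43% higher and 7.51% lower), with medians of 0.42 and 0.01. Among all called probes, 43.8% were higher on the arrays labelled 22Rv1 with Dox (31.7% with median scaling), 50.4% in LNCaP with Dox (60.1%) and 55.7% in the knockdown (34.3%). Markers moved beside these changes. Intensities of all probes of a marker list were summed after background correction and quantile normalization. For the prostate luminal markers the sum was 1409 to 1460 in 22Rv1 and 484 to 554 on the arrays labelled with Dox. There 7 of 9 of their tested probes fell and 1 rose. In M4 cells the sum was 941 to 1270 with scramble and 1595 to 1788 with knockdown, where 4 of 9 rose and 1 fell. Of basal markers, 0 of 5 probes tested were called on the arrays labelled 22Rv1 with Dox (limma; 1 had an unadjusted p under 0.05), and 1 fell in the knockdown. The intestinal markers went from 582 to 636 down to 137 to 190 on the arrays labelled 22Rv1 with Dox, where 3 of 7 probes fell (CDH17, MUC13 and VIL1). Fibroblast markers went from 116 to 137 up to 170 to 288 there, with 3 of 4 probes higher (2 of LUM and 1 of COL1A1), and 2 of 6 leucocyte probes fell (370 to 397 against 218 to 259). In the knockdown, 2 of 7 intestinal probes fell (CDH17 and LGALS4 itself) and 1 rose, for sums of 5999 to 6309 against 272 to 472. Those sums include LGALS4, whose intensity before correction was 5731, 7200 and 5550 with scramble and 126.5, 107.9 and 115.2 with knockdown. Their fall thus largely restates the knockdown itself. There 1 of 4 fibroblast probes fell (DCN, sums 183 to 351 against 164 to 221) and 1 of 6 leucocyte probes rose (288 to 319 against 359 to 396). With Dox in LNCaP, 2 of 9 luminal probes rose and 1 fell, 1 of 7 intestinal probes rose (LGALS4), and 1 of 5 basal and 1 of 6 leucocyte probes fell. The part of these markers in the keratin changes was not tested. In bulk RNA, fewer cells of a kind and less RNA per cell cannot be told apart.

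**Figure D4:**
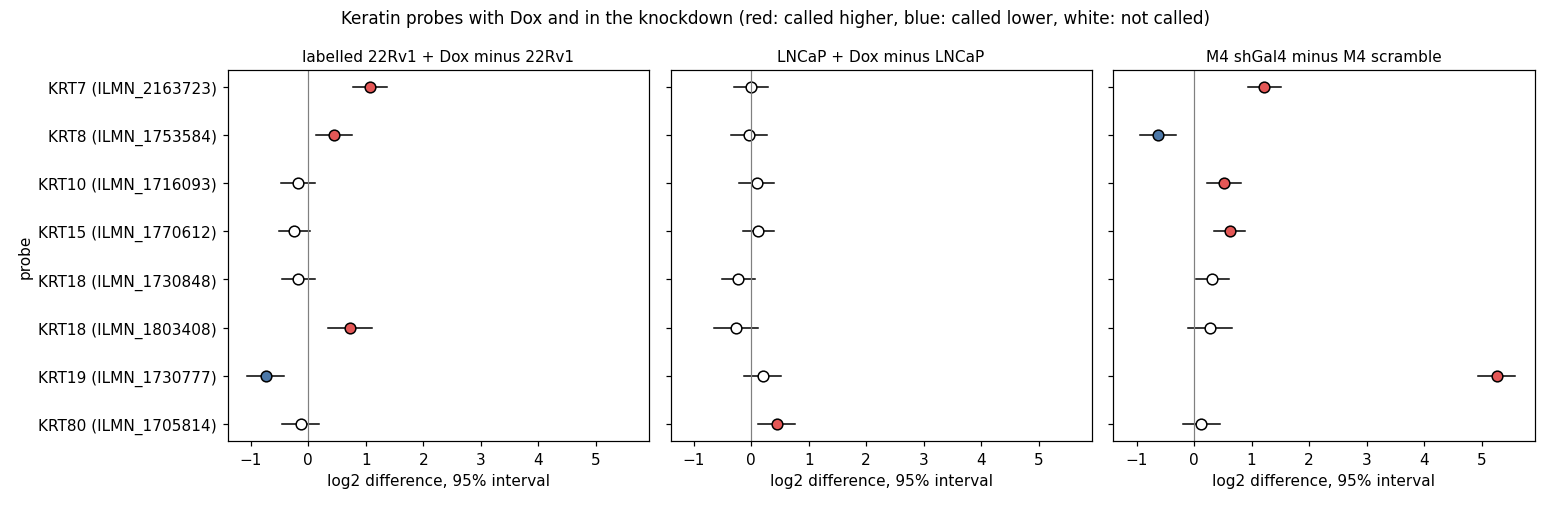
Log2 change of each of the 8 tested keratin probes in 3 comparisons, with 95% intervals from the limma fit (panels share one scale; red, called higher; blue, called lower; white, not called). KRT19 changed by -0.74 on the arrays labelled 22Rv1 with Dox, by 0.20 in LNCaP with Dox and by 5.26 in the M4 knockdown.

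The Dox response was set against itself across lines. For 3 of 8 keratin probes the change on the arrays labelled 22Rv1 with Dox differed from that in LNCaP, where 14.2% of all probes did (7.03% higher and 7.12% lower). KRT7 differed by 1.07 (SE 0.20, adjusted p = 0.000945), ILMN_1803408 of KRT18 by 0.99 (SE 0.26, adjusted p = 0.0132), and KRT19 by -0.94 (SE 0.22, adjusted p = 0.00614). The median was -0.11 for the keratin probes and -0.03 for all, and the share higher among called probes was 49.7% (38.7% with median scaling). Without background correction KRT7 differed by 0.33 and ILMN_1803408 by 0.44, both called. KRT8 did not pass this test, so its change on the arrays labelled 22Rv1 with Dox was not shown to differ from its change in LNCaP.

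Between lines, 2 of 8 keratin probes were called in M4 scramble against 22Rv1 (KRT8 higher, KRT19 lower), where 28.6% of all probes were (13.5% higher and 15.1% lower). In M4 knockdown against 22Rv1, 6 of 8 were called, all higher, namely KRT7, KRT8, KRT10, both probes of KRT18 and KRT19, where 20.7% of all probes were called with 9.90% higher and 10.8% lower. The median of the 8 probes there was 0.65 against 0.01 over all probes. The share of called probes that were higher in this comparison was 47.8%, and 26.3% with median scaling. KRT7 in M4 knockdown stood 1.38 above 22Rv1 (SE 0.14, adjusted p = 3.25e-07). Without background correction KRT7 there was 0.46 and the KRT18 probes 0.30 and 0.23, all called. With median scaling only 2 keratin probes were called there, KRT7 and KRT19, and the calls of KRT8, KRT10 and both KRT18 probes were lost. In LNCaP against 22Rv1, 6 of 8 were called, 4 higher (KRT10, both probes of KRT18 and KRT80) and 2 lower (KRT7 and KRT19), against 41.9% of all probes. Of the called probes 50.2% were higher, and 36.8% with median scaling. Beside this, 9 of 9 prostate luminal probes were higher in LNCaP, with summed intensities of 6966 to 8135, 4 of 7 intestinal probes were lower (63.8 to 81.2 against 582 to 636), and 1 of 4 fibroblast probes was higher and 1 lower. Of basal probes 1 of 5 was higher and 1 lower in LNCaP, and of leucocyte probes 2 of 6 were higher and 1 lower. In M4 scramble against 22Rv1, 1 of 9 luminal probes was lower, 2 of 7 intestinal probes were higher and 2 lower, 2 of 4 fibroblast and 1 of 5 basal probes were higher, and 2 of 6 leucocyte probes were lower. In M4 knockdown against 22Rv1, 3 of 9 luminal probes were higher and 2 lower, 3 of 7 intestinal probes were lower and 1 of 4 fibroblast probes was higher. LGALS4 itself is among the intestinal probes that were higher in M4 scramble and lower in M4 knockdown and LNCaP (6.54, -0.91 and -1.32). The part of these markers in the keratin differences was not tested. All 3 comparisons share the arrays of 22Rv1 without Dox.

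**Figure D5:**
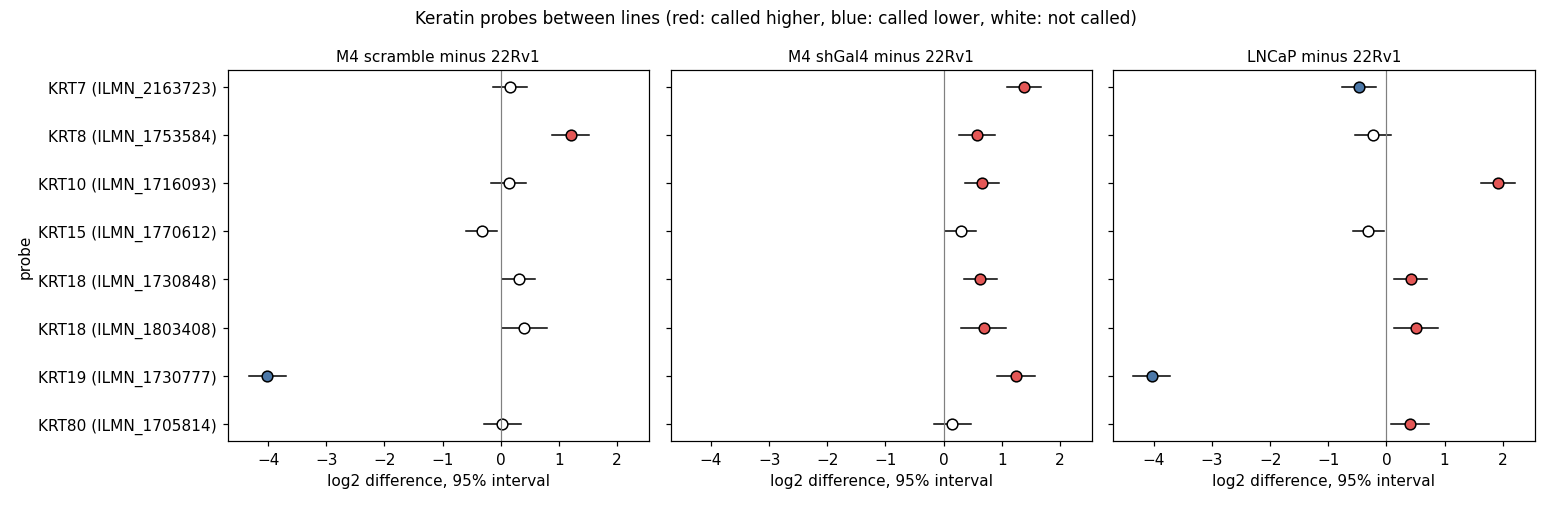
Log2 difference from 22Rv1 without Dox of each of the 8 tested keratin probes in M4 scramble, M4 knockdown and LNCaP, with 95% intervals from the limma fit (panels share one scale; red, called higher; blue, called lower; white, not called). KRT19 is -4.01 in M4 scramble, 1.25 in M4 knockdown and -4.04 in LNCaP.

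Most other keratins were not detected. Of 45 listed, 39 had a probe and 6 were tested, KRT3, KRT33A, KRT73, KRT75, KRT84 and KRT85. In 6 of the 7 comparisons 0 were called by limma, with an unadjusted p under 0.05 for 2 in M4 scramble against 22Rv1, 1 in LNCaP against 22Rv1 and 0 in the other 4. In LNCaP with Dox 1 was, the hair keratin KRT33A, with a rise of 0.52 (SE 0.18, adjusted p = 0.0412, at least 1.15-fold).

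The intermediate filaments of other cells were set beside the keratins. VIM, the filament protein of mesenchymal cells, fell on both probes in the knockdown, with changes of -1.74 (SE 0.15, adjusted p = 4.52e-08) and -0.86 (SE 0.16, adjusted p = 0.000625), and NES, which encodes nestin of progenitor cells, fell by 0.65. In all, 3 of 12 probes tested were lower in the knockdown and 0 higher, where 16.9% of all probes were called. Against 22Rv1, M4 scramble had higher VIM (1.62 on the first probe), NEFH, a neurofilament chain (1.82), and PRPH, peripherin (0.78), and lower LMNA, the gene of lamins A and C (-0.88), with 4 of 12 higher and 2 lower against 28.6% of all probes called. On the arrays labelled 22Rv1 with Dox the lamin genes LMNB1, LMNB2 and LMNA fell (-1.01, -0.50 and -0.45) and NEFH rose by 0.57, which made 4 of 12 called against 18.8% of all probes. The other LMNA probe did not pass the test there (-0.37). With Dox in LNCaP 2 of 12 fell, PRPH (-0.80) and SYNM, which encodes synemin (-0.71), beside 23.3% of all probes called. LNCaP had 6 of 12 lower than 22Rv1 and 0 higher, beside 41.9% of all probes called, among them NES (-2.16, at least 3.76-fold), PRPH (-2.09), LMNA (-1.95) and NEFH (-1.93). M4 knockdown had 3 of 12 higher than 22Rv1 and 3 lower, beside 20.7% of all probes called. Among them, NEFH was higher (1.55), and both LMNA probes (-1.06 and -0.76) and NES (-0.91) were lower.

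Keratin filaments are tied to desmosomes and other junctions by linker proteins. In the knockdown, 5 of 19 linker and partner probes were higher and 0 lower, where 16.9% of all probes were called. DSP, the desmoplakin that anchors keratin filaments at desmosomes, rose by 0.99 (SE 0.20, adjusted p = 0.00133), JUP (plakoglobin) by 0.87, EVPL (envoplakin) by 0.80 and PLEC (plectin) by 0.65. The probes of a gene did not all pass the test. In the knockdown the other DSP probe changed by 0.07 and the other PLEC probes by -0.17 and -0.01, and 2 of 3 JUP probes were called. In M4 scramble against 22Rv1, 7 of 19 were lower and 0 higher, beside 28.6% of all probes, among them DSP (-1.70 on 1 probe, -0.40 and not called on the other), EVPL (-0.95), PLEC (-0.91 on 1 of 3 probes) and JUP (-0.89). Between M4 knockdown and 22Rv1, 2 of 19 were lower and 0 higher, beside 20.7% of all probes, and 1 DSP probe was among them (-0.71, adjusted p = 0.0133). On the arrays labelled 22Rv1 with Dox, 4 of 19 were lower, beside 18.8% of all probes. They were 3 probes of JUP, which fell (-0.81 and -0.50, and at least 1.22-fold on the third, which was at background there), and PKP1 (at background there, at least 1.30-fold lower). With Dox in LNCaP, 3 of 19 were lower and 1 higher, beside 23.3% of all probes. DSP fell on 1 of 2 probes (-0.77), JUP on ILMN_1733811 alone of 3 (-0.59) and FAM83H on its 1 tested probe (-0.58), and CSNK1A1 rose by 0.59 on 1 of 3. The other JUP probes there changed by 0.33 and -0.10 and the other DSP probe by -0.33, none of them called. Against 22Rv1, LNCaP had 3 of 19 lower and 1 higher, beside 41.9% of all probes. PKP2 and PKP1 were at background in LNCaP (at least 1.62-fold and 1.28-fold lower), TCHP was lower (-0.92), and PKP3 was higher on 1 of its 2 probes (0.72). The plakophilins PKP1, PKP2 and PKP3 are desmosomal plaque proteins.

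Among transcription factors of epithelia, 9 of 20 probes were higher and 3 lower in the knockdown, where 16.9% of all probes were called. GRHL2, a grainyhead factor of epithelial junction genes, rose by 1.49 (SE 0.16, adjusted p = 6.44e-07), TFAP2C rose at least 2.02-fold from background, TFAP2A rose by 1.25, and KLF5 fell by 1.62 (SE 0.21, adjusted p = 1.30e-05). TFAP2A was read by 4 tested probes, of which 2 were called in the knockdown and the others changed by 0.36 and 0.23. In M4 scramble against 22Rv1, 2 were higher and 7 lower, beside 28.6% of all probes, among them GATA3 (-2.11), ELF3 (-1.32) and TFAP2A (-1.27), which were lower, and EHF (1.79), which was higher. In M4 knockdown against 22Rv1, 6 were higher and 2 lower, beside 20.7% of all probes. GATA3 was at background in M4 knockdown (at least 4.32-fold lower), 1 of 2 TFAP2C probes was at background in 22Rv1 (at least 2.01-fold higher in M4 knockdown; 0.61 on the other), and KLF4 was higher by 0.96. On the arrays labelled 22Rv1 with Dox, 3 were lower (GATA3 -0.997, ELF3 -0.68, TFAP2A -0.60 on 1 of 4 probes) and 0 higher, beside 18.8% of all probes. With Dox in LNCaP 3 were lower (TFAP2A -0.82 on 1 of 4 probes, FOXA1 -0.50, TFAP2C -0.41 on 1 of 2) and 0 higher, beside 23.3% of all probes. LNCaP against 22Rv1 had 4 higher and 8 lower, beside 41.9% of all probes. TFAP2A differed by -4.95 on the probe ILMN_1765574 and was at background in LNCaP on another (at least 10.5-fold lower). Its remaining probes differed by less, at least 1.02-fold on one (adjusted p = 0.043) and by -0.26 on the other, which was not called. TFAP2C was at least 7.61-fold higher in LNCaP on the probe at background in 22Rv1 and 1.97 higher on the other, and EHF was higher by 2.64.

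For the 4 keratins whose group means span at least 1 on the log2 scale, the genes with the most similar pattern were taken by Pearson's r over the 18 arrays. These arrays fall into 6 groups of 3, so r follows the group means, and the genes share arrays and normalization. For KRT19 they were TCTN1 (r = 0.96), MINDY4 (0.96) and FRMD6 (0.94), and for KRT7 they were LTO1, MARVELD3 and SYT17 (0.95 each). For KRT8 they were GALNT16 (0.94), SLITRK4 (0.93) and PABPC4L (0.93), and for KRT10 PWWP2B (0.99), LRP3 (0.98) and TSC2 (0.98).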

How the data were processed

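The authors deposited a table of non-normalized probe intensities on a linear scale beside detection p-values, and a matrix of log2 values. Per the labels' protocols, RNA was labelled with biotin for Illumina bead arrays; the scanner software is not given in the sources read here. Of the 851454 deposited log2 values, 851340 lay within 0.01 of quantile-normalized log2 intensities. The settings with the deposited matrix and without background correction are thus nearly the same, and counts of settings include both. Intensities were corrected and normalized with neqc of limma 3.58.1 (R 4.3.3, statmod 1.5.0; normexp from the detection p-values, offset 16, quantile). The offset shrinks, and background correction widens, changes of dim probes, and changes are relative to the bulk of probes. Probes with a detection p under 0.05 on at least 3 arrays were tested in 1 fit of 6 group means (12 residual and 8.55 prior degrees of freedom), two-sided, with calls made under 0.05 after Benjamini-Hochberg adjustment across 25675 probes. The number of arrays limits the precision. Where a group is at background on all arrays, the brighter group's mean over the dim group's detection limit gives "at least N-fold". Probe genes come from the platform annotation, names from RefSeq GRCh38.p14. Data were simulated with 200 of 25675 probes changed. On them the fit recovered 25% to 34.3% of 1.5-fold and 82.7% to 88.7% of 2-fold changes in the comparisons of 2 groups. For the difference in Dox response it recovered 2.67% and 45%. Far more probes were called in the data, where the adjustment is thus less strict, so these rates may understate the recovery there. Small changes that did not pass the test may still have been missed. Named genes were every member, LGALS4, and from each other list up to 4 called probes a comparison with the largest changes and no overlap between arrays, and for members spanning at least 1 the 3 genes of highest r. Members and lists were chosen with earlier results of these data known. Alternatives changed the background correction, normalization, filter, probes per gene, samples, block, covariate, weights and arrays; probe sequences were not used here.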

Additional observations from a re-analysis of the deposited data

Results flagged for a closer look

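For 3 keratin probes the change with Dox differed between the 22Rv1 and LNCaP arrays by the test of the difference itself (limma, Benjamini-Hochberg over 25675 probes). KRT7 differed by 1.07 (adjusted p = 0.000945), with a rise on 3 of 3 arrays labelled 22Rv1 with Dox and both LNCaP groups at background. ILMN_1803408 of KRT18 differed by 0.99 (adjusted p = 0.0132; 0.0566 with median scaling), which the other KRT18 probe did not show. KRT19 differed by -0.94 (adjusted p = 0.00614), lower on 3 of 3 arrays labelled 22Rv1 with Dox, on which LGALS4 did not rise. No test for a single outlying array was applied to the keratin values, since each group has 3 arrays.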

How the results depend on the processing

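Of 27 called keratin results, 14 kept call and direction in every setting and 0 reversed; of 29 not called, 19 were never called. With median scaling, keratin probes called numbered 2 on the arrays labelled 22Rv1 with Dox, 0 in LNCaP with Dox, 2 in M4 knockdown against 22Rv1 and 3 in LNCaP against 22Rv1, and all probes called 3685 in LNCaP with Dox (5979 in the main setting) and 2673 in the knockdown (4351). The LNCaP Dox keratin count was 0 also without background correction, with the deposited log2 matrix, without the detection filter, with the replicate block and with the within-group axis as a covariate. With that covariate, all probes called were 960 in LNCaP with Dox and 3599 in M4 scramble against 22Rv1 (7340). Its scores kept differences between groups. They did not overlap between LNCaP (1.46 to 20.8) and LNCaP with Dox (-32.5 to -29.9), nor between M4 scramble (-34.3 to 4.32) and 22Rv1 (22.6 to 25.6). With 1 probe a gene they were 3809 in LNCaP with Dox, 4849 in M4 scramble against 22Rv1 and 6887 in LNCaP against 22Rv1 (10759), since fewer probes were tested. With only the compared arrays, 4 keratin probes were called in M4 scramble against 22Rv1. With array weights, all probes called were 11321 on the arrays labelled 22Rv1 with Dox (4828), 6780 in the knockdown, 8938 in M4 knockdown against 22Rv1 (5320) and 7282 for the difference in Dox response (3634), where 6 keratin probes were called. Of the arrays labelled 22Rv1 with Dox, replicate 1 had a weight of 4.61 and replicates 2 and 3 had 0.33 and 0.32. Apart from the fewer probes, the cause was not tested.

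Leaving out 1 array at a time gave, for keratin and all probes called, 3 and 3373 to 6277 on the arrays labelled 22Rv1 with Dox, 0 to 1 and 3928 to 4939 in LNCaP with Dox, 4 to 5 and 2943 to 3952 in the knockdown, 2 and 5641 to 6853 in M4 scramble against 22Rv1, 6 to 7 and 3725 to 5244 in M4 knockdown against 22Rv1, 3 to 5 and 9348 to 10168 in LNCaP against 22Rv1, and 3 to 4 and 2735 to 4554 for the difference in Dox response.

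Changes of sign were limited to probes that were not called. With median scaling they were KRT7 in LNCaP with Dox (-0.0017), KRT10 in M4 scramble against 22Rv1 (-0.0076) and ILMN_1730848 of KRT18 in the difference in Dox response (-0.013). With the within-group axis it was ILMN_1803408 of KRT18 in LNCaP with Dox (0.0097), and with array weights KRT80 in M4 scramble against 22Rv1 (-0.017). Without single arrays, KRT80 ranged from -0.043 to 0.096 in M4 scramble against 22Rv1, from -0.034 to 0.29 in the knockdown and from -0.0051 to 0.32 in M4 knockdown against 22Rv1. In LNCaP with Dox, KRT8 ranged from -0.20 to 0.14, KRT10 from -0.025 to 0.18 and KRT7 from -0.027 to 0.023, and ILMN_1730848 of KRT18 from -0.063 to 0.14 in the difference in Dox response.

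Same-numbered arrays of different groups deviated with r between -0.11 and 0.11, 1 of 18 pairs above 0.1, so no pairing by number was seen. With 3 arrays a group, these values cannot tell whether same-numbered samples share a culture or batch. With the replicate block, 3 keratin probes were called on the arrays labelled 22Rv1 with Dox, 0 in LNCaP with Dox, 5 in the knockdown, 2 in M4 scramble against 22Rv1, 6 in M4 knockdown against 22Rv1, 5 in LNCaP against 22Rv1 and 3 for the difference in Dox response. Each sample did not correlate best with its own number (6 of 18 did). Probes near background, KRT7, KRT15 and KRT80, are limited by signal over background. So are both KRT18 probes, which were dim though above background on every array.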
